A study of Mus musculus with 8 samples.

Results

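The genes described here carry the adrenergic, angiotensin and endothelin signals of the heart. They were chosen by name: Edn1, Ednra, Ednrb, Ace, Agtr1a, Adrb1, Adra1a, Adra1b and Rgs2, which are 9 of the 15156 genes with a detected probe. The 8 arrays came from a study of gene expression after myocardial infarction (MI). In 4 male C57BL/6 mice the anterior interventricular coronary artery was ligated and left closed. The control group of 4 male mice of the same background received the sham operation, without the ligation. Cardiac tissue was taken 24 hours after surgery, and RNA of each mouse was labeled with Cy3 and hybridized to 1 Agilent SurePrint G3 array. The study also describes an imaging exam of heart function (FDG-PET) in the mice of both groups after surgery. Its protocol has injections of Acipimox and of the tracer FDG before the recording, and isoflurane anesthesia during it. The sham-operated mice are therefore not hearts after surgery alone, and the part of the exam in the values was not tested. The study describes homogenizing the excised heart and does not mention removal of the atria. A value therefore averages infarcted and surviving tissue and every cell type in it.

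Noradrenaline and adrenaline act on adrenergic receptors. The beta receptors couple mainly to cyclic AMP and raise heart rate and force, and the alpha-1 receptors couple to the G protein Gq and phospholipase C. Angiotensin II, which Ace produces from angiotensin I, and endothelin-1, the peptide of Edn1, also act through Gq-coupled receptors, constrict vessels and promote cardiac growth. RGS proteins such as Rgs2 speed up the shut-off of G proteins. After an infarct these systems are the targets of beta blockers, angiotensin-converting enzyme inhibitors and angiotensin receptor blockers.

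All 9 genes were well above background on all 8 arrays, and no probe of theirs was saturated. Each gene was read from the brightest of its probes. Values are log2 signals between arrays calibrated with spike-in RNA, on the scale of the authors. A change is the mean of the 4 MI mice minus the mean of the 4 sham-operated mice. On this scale the median change of all 34038 detected probes was 0.12. When each array was instead scaled to its own 75th percentile of signal, that median was -0.02, a shift of 0.14, and the text gives this scaling where it changes the call of a gene it names or the calls of a list. Probes were called when their p, adjusted over all probes, was under 0.05 in limma, which called 7.61% of the probes, 82.8% of them as higher in MI mice. With the 75th percentile scaling it called 17.5%, and only 49.6% of these were higher.

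None of the 9 genes passed that threshold on the spike-in scale. At an unadjusted p under 0.05, limma passed 3 of the 9 genes, Ace, Edn1 and Ednrb, against 19.9% of all probes. Significance analysis of microarrays, the test family of the study, passed 1 of 9, Edn1, against 11.5% of all probes. In limma the 75th percentile scaling and quantile normalization each passed 2 of 9, Adra1a and Agtr1a as lower, against 17.5% and 18.0% of all probes. Quantile normalization after normexp background correction of the median spot intensities passed these genes together with Ace and Ednrb as higher, 4 of 9 against 20.7%. The changes ran from -0.38 for Adra1a to 0.70 for Ace, with 5 genes above 0 and 4 below, and no gene reached a 2-fold difference. The median over the 9 genes was 0.02, below the 0.12 of all probes. The precision sets how this is to be read. Standard errors and intervals are those of limma, which draws the variance of each probe toward that typical of all probes. The standard errors were between 0.20 and 0.30, and the 95% intervals of 7 of the 9 genes stayed within 1 log2 unit of 0. Ace, up to 1.25, and Edn1, up to 1.03, are the exceptions.

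**Figure D1:**
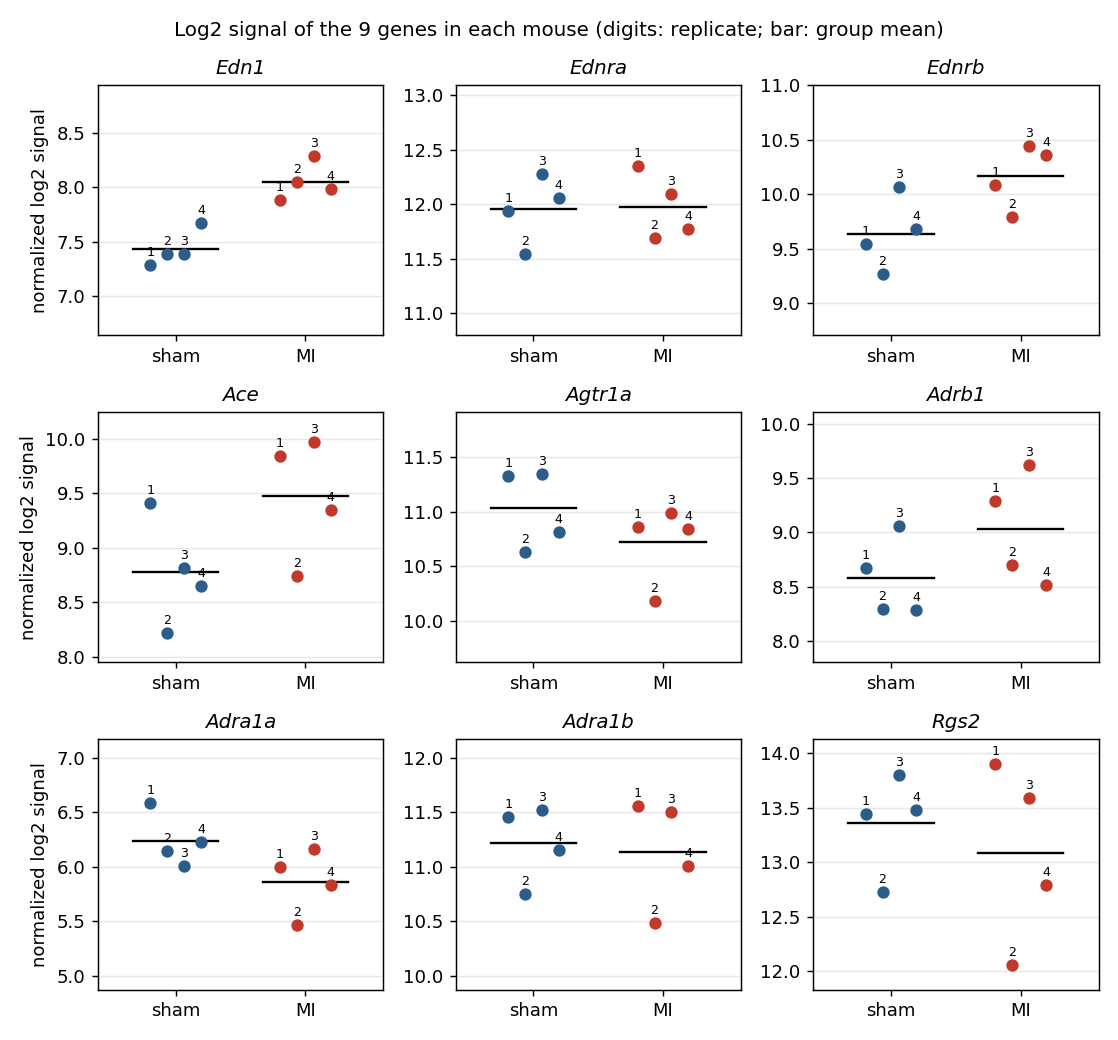
Normalized log2 signal of the 9 genes in each of the 4 sham-operated and 4 MI mice, on the spike-in scale. Each point is a mouse, its digit the replicate number, and each bar a group mean; all panels span the same number of log2 units. Edn1 is the only gene whose groups do not overlap, with MI mice at 7.88 or above and sham-operated mice at 7.67 or below.

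The starts of Edn1, Ednrb and Ace are shown because these are the genes whose 95% intervals lay above 0 on both scales. Each line holds 280 bases of the RefSeq promoter table, 250 before the start of the transcript and 30 after it, on the coding strand of GRCm38.p6. Edn1 lies at chr13:42301226-42301505 (+), Ednrb at chr14:103843672-103843951 (-) and Ace at chr11:105967698-105967977 (+), the upstream one of the 2 starts that the table lists for Ace. Capitals mark matches to a searched motif on either strand.
Edn1: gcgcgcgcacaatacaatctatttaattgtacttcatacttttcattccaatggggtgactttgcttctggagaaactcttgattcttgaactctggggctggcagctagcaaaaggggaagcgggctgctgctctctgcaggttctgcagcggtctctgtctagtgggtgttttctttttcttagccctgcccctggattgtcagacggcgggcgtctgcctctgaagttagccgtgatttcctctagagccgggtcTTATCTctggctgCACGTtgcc
Ednrb: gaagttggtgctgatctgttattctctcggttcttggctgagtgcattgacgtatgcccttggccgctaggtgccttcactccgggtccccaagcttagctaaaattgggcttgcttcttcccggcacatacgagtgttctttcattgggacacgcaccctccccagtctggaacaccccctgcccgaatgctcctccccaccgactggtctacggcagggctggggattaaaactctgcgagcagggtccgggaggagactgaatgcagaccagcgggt
Ace: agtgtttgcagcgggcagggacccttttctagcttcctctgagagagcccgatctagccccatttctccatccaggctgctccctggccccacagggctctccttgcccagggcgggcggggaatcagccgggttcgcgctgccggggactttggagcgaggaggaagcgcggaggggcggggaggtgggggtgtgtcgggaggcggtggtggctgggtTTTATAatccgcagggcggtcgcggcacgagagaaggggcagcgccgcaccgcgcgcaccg

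Motifs of 6 kinds were searched on both strands. In the Edn1 window, letters known from GATA factors (AGATAA) matched on the opposite strand, just past the start, as they did somewhere in 10.7% of all 32851 windows of this length. The core of the hypoxia response element (ACGTG) matched there too, also on the opposite strand, and stood in 18.5% of all windows. The Ace window held a match to the TATA box (TATAAA) on the opposite strand, 31 bases before the start, which 13.1% of all windows share. The AP-1 letters (TGAGTCA) stood in 4.94% of all windows but in none of these windows. The same was true of the NFAT core (GGAAAA), found in 22.2%, and of the cyclic AMP response element (TGACGTCA), found in 1.74%. The Ednrb window held none of the 6 motifs. A match describes the letters only. Promoters of 7 of the 9 genes were in the table, which did not list Adra1a and Agtr1a.

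Edn1 is the gene of endothelin-1, a vasoconstrictor peptide made above all by endothelial cells, and it lies at chr13:42301476-42307990. Its log2 signal was 7.88, 8.05, 8.29 and 7.98 in MI mice and 7.29, 7.39, 7.39 and 7.67 in sham-operated mice. The lowest MI value exceeded the highest sham value, which no other of the 9 genes showed. Among all probes, 11.2% had groups that did not overlap. The change was 0.62 ± 0.20 (SE, n = 4 and 4), a 1.53-fold difference, with a 95% interval of 0.20 to 1.03. The size depended on the calibration, with 0.32 when the vsn model was fitted anew to the spike-in spots and 0.36 after normexp background correction. limma gave an adjusted p of 0.063, and the exact two-sided permutation test gave 0.0286, the smallest p that 4 against 4 mice allow.

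The array holds the Edn1 probe in 10 spots, and these show how well a single array measured it. On the spike-in scale the spots of an array differed from each other with an SD between 0.07 and 0.09. The SD between mice was larger, 0.17 in the MI group and 0.16 in the sham group. With the 75th percentile scaling the SDs between mice were 0.32 and 0.31. All 10 spots were well above background on every array. On the 75th percentile scale the change was 0.52 ± 0.20, with an adjusted p of 0.109, and the groups overlapped, since MI replicate 1 at 7.56 fell below sham replicates 2 and 4 at 7.62 and 7.70. The Edn1 change was nearly equal in the upper and lower row of the slide, 0.63 and 0.61, with 2 mice of each group in each row.

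Endothelin receptors differ in the cells that carry them: the type A receptor Ednra is known from smooth muscle and cardiomyocytes, and the type B receptor Ednrb also from endothelial cells, where it clears the peptide. Ednrb, at chr14:103814615-103844508, had log2 signals of 10.09, 9.79, 10.44 and 10.36 in MI mice and 9.54, 9.27, 10.07 and 9.68 in sham-operated mice. The groups overlapped only through sham replicate 3, which exceeded MI replicate 2. Its change was 0.53 ± 0.22 with a 95% interval of 0.07 to 0.99, and it did not pass the threshold (adjusted p = 0.165). For Ednrb the exact permutation p was 0.0571. A second, dimmer Ednrb probe changed by 0.57 ± 0.27.

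Ednra, at chr8:77663029-77724452, had log2 signals of 12.35, 11.69, 12.09 and 11.77 in MI mice and 11.94, 11.54, 12.28 and 12.06 in sham-operated mice. The groups were interleaved. The change was 0.02 with a 95% interval of -0.43 to 0.47, and its sign turned to -0.10 on the 75th percentile scale. In the Ednra signal minus the Ednrb signal of the same array, a factor common to the array cancels. It was 2.26, 1.90, 1.65 and 1.40 in MI mice and 2.40, 2.27, 2.20 and 2.38 in sham-operated mice. MI replicate 1 lay within the sham range, and the other MI values lay below it. The mean difference between groups was -0.51, with an exact permutation p of 0.0571 before adjustment over the 7 pairs of genes compared.

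Ace encodes angiotensin-converting enzyme, which endothelial cells carry on their surface, and lies at chr11:105967948-105989964. Its log2 signal was 9.84, 8.74, 9.97 and 9.35 in MI mice and 9.41, 8.22, 8.81 and 8.65 in sham-operated mice. MI replicate 2 was as low as the sham group, and sham replicate 1 exceeded MI replicate 4. The change of 0.70 ± 0.26, a 1.63-fold difference, was the largest of the 9 genes and had a 95% interval of 0.16 to 1.25. limma gave an adjusted p of 0.112, and the exact permutation test gave 0.143. The mice named decided the call: without MI replicate 2 the change was 0.95 with an adjusted p of 0.0311, and without sham replicate 1 it was 0.92 with an adjusted p of 0.0269. The change was 0.48 in the upper row of the slide and 0.93 in the lower.

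Agtr1a, at chr13:30336356-30382867, encodes the main angiotensin II receptor of the mouse heart. Its log2 signal was 10.86, 10.18, 10.99 and 10.84 in MI mice and 11.33, 10.63, 11.35 and 10.81 in sham-operated mice. MI mice lay lower on average, with overlapping groups and a change of -0.31 ± 0.23, a 95% interval of -0.78 to 0.17 and an adjusted p of 0.504. Without MI replicate 2 it was -0.13, and without sham replicate 3 it was -0.20. With the 75th percentile scaling, the same probe had values of 10.64, 10.51, 10.70 and 10.73 in MI mice and 11.23, 11.01, 11.16 and 10.92 in sham-operated mice. The groups then no longer overlapped, as for 23.7% of all probes on that scale. The change there was -0.44 ± 0.11, with an adjusted p of 0.0276 in limma. That call remained in only 2 of 8 fits that each left out 1 mouse, those without MI replicate 4 and without sham replicate 4.

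Agtr1a and Ace gave the one pair of genes whose groups did not overlap. The Agtr1a signal minus the Ace signal of the same array was 1.02, 1.44, 1.02 and 1.49 in MI mice and 1.92, 2.41, 2.54 and 2.16 in sham-operated mice. The highest MI value, 1.49, lay below the lowest sham value, 1.92. The mean difference between groups was -1.01, the receptor being lower relative to the enzyme after MI. The exact permutation p was 0.0286, the smallest possible, and 0.12 after Benjamini-Hochberg adjustment over the 7 pairs. With 7 pairs this adjustment cannot bring a pair at the smallest possible p under 0.05 unless several other pairs reach it too. Leaving out any mouse kept the difference between -1.13 and -0.92.

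**Figure D2:**
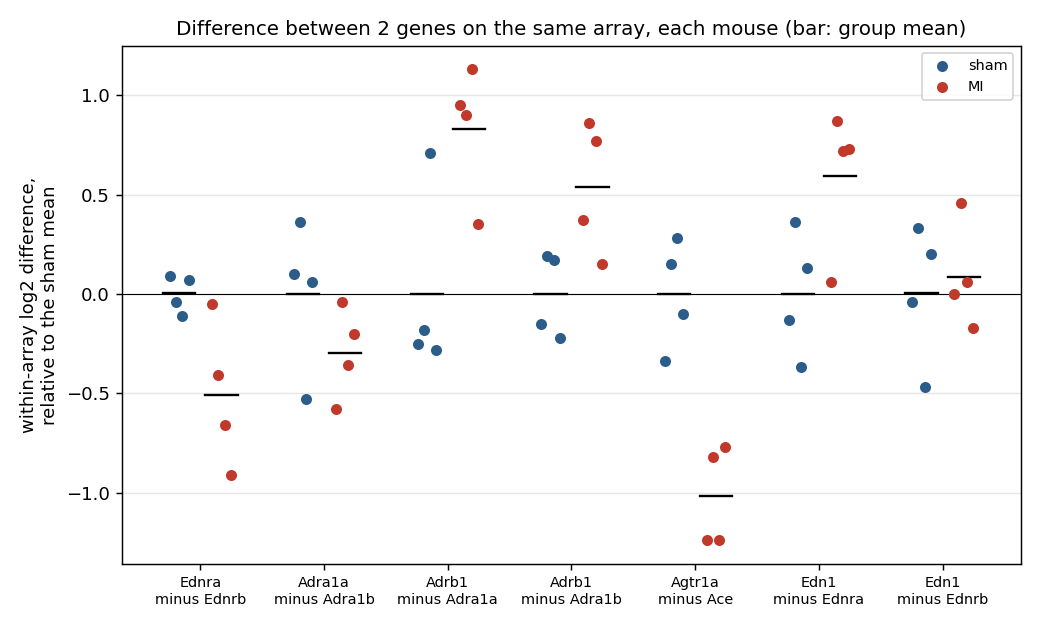
Difference in log2 signal between 2 genes on the same array, for 7 pairs of genes, relative to the mean of the 4 sham-operated mice. Points are mice and bars group means. For Agtr1a minus Ace the 4 MI mice average -1.01 and lie apart from all 4 sham-operated mice; in the other 6 pairs the groups overlap.

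The remaining pairs overlapped between groups. Adrb1 was higher relative to Adra1a by 0.83 (exact permutation p = 0.0571) and relative to Adra1b by 0.54 (exact permutation p = 0.0857), neither past the threshold. Edn1 against its receptors gave 0.60 relative to Ednra (exact permutation p = 0.0857) and 0.09 relative to Ednrb (exact permutation p = 0.714). Adra1a against Adra1b gave -0.29 (exact permutation p = 0.229), with -0.45 on the 75th percentile scale, -0.03 with vsn fitted anew, -0.17 without sham replicate 2 and -0.47 without sham replicate 3. With vsn fitted anew, Adrb1 minus Adra1a was 0.43 and Edn1 minus Ednra 0.29.

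Among the adrenergic receptors, Adrb1 is the main beta receptor of cardiomyocytes and lies at chr19:56722117-56725150. Its log2 signal was 9.29, 8.70, 9.62 and 8.52 in MI mice and 8.67, 8.30, 9.06 and 8.29 in sham-operated mice. MI replicates 1 and 3 stood above all sham-operated mice, and the other two lay within their range. The change was 0.45 ± 0.25 with a 95% interval of -0.05 to 0.96 and an adjusted p of 0.319, and without MI replicate 3 the change was 0.26. A second Adrb1 probe, dimmer but well above background on all arrays, also changed by 0.45. On the 75th percentile scale the brighter probe changed by 0.34 with a 95% interval of -0.13 to 0.80.

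Adra1a, at chr14:66635251-66771240, had log2 signals of 6.00, 5.46, 6.16 and 5.83 in MI mice and 6.58, 6.14, 6.01 and 6.23 in sham-operated mice. MI mice lay lower except MI replicate 3, which exceeded 2 sham-operated mice. The change of -0.38 ± 0.22 had a 95% interval of -0.82 to 0.07 and an adjusted p of 0.351. It was -0.10 with vsn fitted anew and -0.24 without MI replicate 2. On the 75th percentile scale the values were 5.34, 5.18, 5.76 and 5.31 in MI mice and 6.28, 6.11, 5.73 and 6.11 in sham-operated mice, with a change of -0.66 ± 0.16 and an adjusted p of 0.0252. That call remained in 3 of 8 fits that left out 1 mouse, those without MI replicate 3, MI replicate 4 and sham replicate 3.

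Adra1b, at chr11:43774605-43901250, is the other main alpha-1 receptor of the mouse heart. Its signals were 11.56, 10.48, 11.50 and 11.01 in MI mice and 11.46, 10.75, 11.52 and 11.15 in sham-operated mice. The groups were interleaved over nearly the same range. The change was -0.09 with a 95% interval of -0.59 to 0.42, and a second probe changed by 0.21, so the sign was not settled.

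Rgs2, at chr1:143999338-144004149, encodes a regulator that acts on Gq. Its signals were 13.90, 12.06, 13.59 and 12.79 in MI mice and 13.44, 12.73, 13.80 and 13.48 in sham-operated mice. With an SD of 0.83 on its brightest probe, the MI mice varied more in Rgs2 than in any other of the 9 genes. On that probe they held both the highest and the lowest value. The change was -0.28 ± 0.30 with a 95% interval of -0.90 to 0.34 (adjusted p = 0.67), and without MI replicate 2 it was 0.06. A second, dimmer Rgs2 probe changed by -0.25 ± 0.22. There the highest value was that of sham replicate 3, 6.53, and the lowest that of MI replicate 2, 5.46.

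Part of the spread was common to most of the 9 genes. MI replicate 2 had the lowest value of its group in 7 of the 9 genes, and sham replicate 2 in 6 of 9. On the 75th percentile scale these counts were 5 and 3, and the SD was smaller for 8 of the 9 genes in the MI group and for 8 of the 9 in the sham group. The median standard error of the change fell from 0.23 to 0.16. With the replicate number as a block, limma passed 4 of 9 genes as higher on the spike-in scale, Adrb1, Ace, Edn1 and Ednrb, against 14.4% of all probes. The labels do not state whether these numbers pair the mice, and the numbers were not taken as pairs. The part of the calibration in this spread was not tested.

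**Figure D3:**
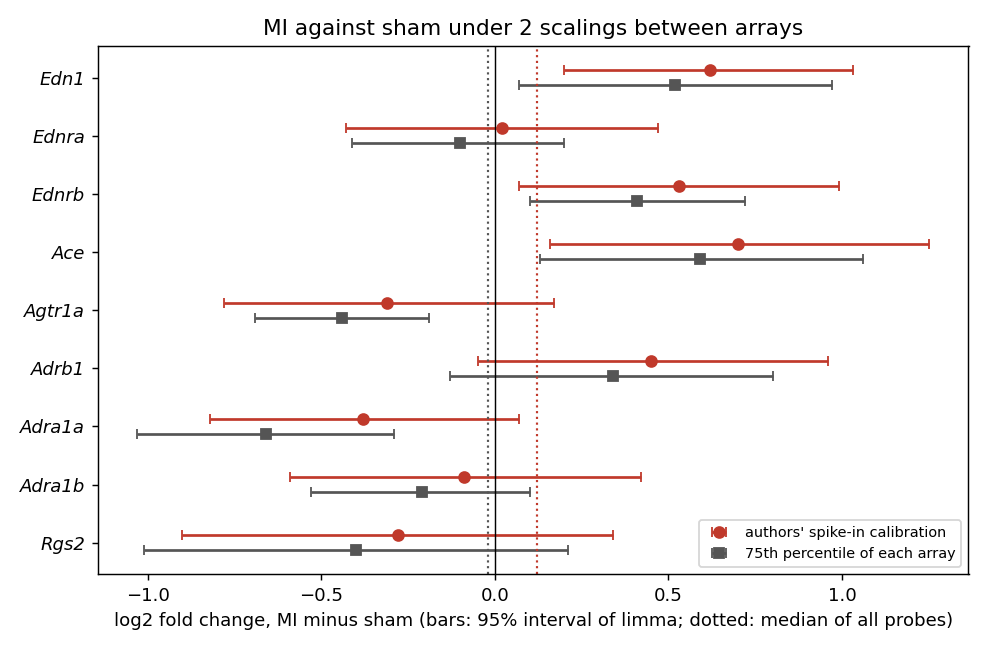
Change between 4 MI and 4 sham-operated mice on the log2 scale for the 9 genes, with 95% intervals from limma, on the spike-in scale (circles) and with each array scaled to its 75th percentile (squares). The dotted lines mark the median of all probes, 0.12 and -0.02. Ace, Edn1 and Ednrb lie above 0 with their whole intervals on both scales, and the intervals of Agtr1a and Adra1a lie below 0 only on the 75th percentile scale.

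The wider pathways were read from 9 lists with 123 genes, of which 117 had a detected probe. On the spike-in scale 15 of the 117 rose and 2 fell, 14.5% in all against 7.61% of all probes, of which 6.30% were higher and 1.31% lower. The median change of the 117 genes was 0.08. With the 75th percentile scaling 17 were called higher and 16 lower, 28.2% against 17.5% of all probes, of which 8.70% were higher and 8.84% lower. The endothelin list, with Edn1, Ednra and Ednrb among its 6 detected genes, gave no call, and its median was 0.30.

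Of the 7 receptor kinases and arrestins, only Arrb2, an arrestin that uncouples and internalizes receptors, was called, with a 2.07-fold rise and an adjusted p of 0.00118. Of the 7, 2 were called higher on the 75th percentile scale. Grk4 had the lowest change of that list, -0.17.

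In the renin-angiotensin list, 1 of 15 detected genes was called. Agt, the precursor of the angiotensins, had signals of 9.17, 8.38, 9.42 and 8.57 in MI mice and 8.53, 7.58, 7.90 and 7.68 in sham-operated mice. Only sham replicate 1 reached into the MI range. The rise was 1.95-fold (0.96 on the log2 scale, adjusted p = 0.0147), with adjusted p of 0.0543 without MI replicate 1 and 0.0571 without MI replicate 3. With vsn fitted anew it was 0.61 (adjusted p = 0.144), and the call was also lost when arrays were aligned on the spike-in signals with no constant (0.0531) and without the filter on detection (0.165). Enpep, the aminopeptidase that breaks down angiotensin II, was at -0.80 with an adjusted p of 0.052. Without MI replicate 4, which had the one MI value of 7.65 among values of 6.36 to 6.49, the change was -1.11 with an adjusted p of 0.00174, and without sham replicate 1 it was -0.94 with an adjusted p of 0.0245. The median of this list was -0.17, and on the 75th percentile scale 1 gene was called higher and 2 lower, Agtr1a among these.

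Other members of the RGS family were called. Of the 17 RGS genes, Rgs2 among them, 3 rose and 1 fell. Rgs16, which acts on Gi and Gq, had signals of 8.45, 9.04, 9.42 and 8.90 in MI mice against 7.16, 6.95, 7.31 and 7.34 in sham-operated mice, a 3.4-fold rise with an adjusted p of 3.17e-06. Rgs14 rose 2.38-fold (adjusted p = 0.000111). With vsn fitted anew the log2 changes of Rgs16 and Rgs14 were smaller, 1.03 instead of 1.76 and 0.62 instead of 1.25, and both stayed called. Scaled to the 75th percentile, 3 RGS genes were called higher and 2 lower. Rgs19 rose by 0.91 and Rgs17 fell by 0.89, both named after their values were seen. The difference between Rgs2 and these genes was not tested.

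Downstream, the cyclic AMP list of 23 genes gave 2 rises and 1 fall, and the Gq list of 16 genes gave 1 rise. Each list had 2 genes called higher and 3 lower on the 75th percentile scale. The phosphodiesterases of the type 4 family, which degrade cyclic AMP, split: Pde4b rose 1.97-fold (adjusted p = 0.00645) and Pde4a was 1.84-fold lower (adjusted p = 0.045). Without the filter on detection the Pde4b call was lost (adjusted p = 0.0882). The Pde4a call was lost without MI replicate 2, where the change was -0.59, as it was when sham replicate 1 (-0.76), MI replicate 3 (-0.83) or sham replicate 3 (-0.79) was left out. It was also lost with vsn fitted anew (adjusted p = 0.23), the shift by the spike-in signals (0.144), the authors' value table (0.0813), no filter on detection (0.324), significance analysis of microarrays (q = 0.0583) and the replicate block (0.0711). The other rise in the cyclic AMP list, named after its values were seen, was Prkar2a, a regulatory subunit of protein kinase A, at 0.86. In the Gq list Prkcd, a protein kinase C, rose 1.97-fold (adjusted p = 0.00463), a call lost without the filter on detection (adjusted p = 0.0666). Plcb1, a phospholipase C, was at -0.53 with an adjusted p of 0.18. Scaled to the 75th percentile it was at -0.69 and called (adjusted p = 0.0388). The mean of all Plcb1 probes on the spike-in scale changed by -0.33 (adjusted p = 0.401).

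Among the 16 calcineurin and hypertrophic response genes 5 rose and none was called lower on the spike-in scale, while on the 75th percentile scale 5 were called higher and 2 lower. Nppb, the gene of B-type natriuretic peptide, rose 3.19-fold (adjusted p = 1.54e-05), with MI values of 17.29 to 17.62 against sham values of 15.33 to 16.49. Nppa, of atrial natriuretic peptide, rose 2.59-fold (adjusted p = 0.0156), but its groups overlapped through sham replicate 2 at 17.87, the call was lost without MI replicate 2 (adjusted p = 0.0627), and the 75th percentile scale gave an adjusted p of 0.147. The Nppa call was also lost with vsn fitted anew (adjusted p = 0.242), the shift by the spike-in signals (0.0722) and quantile normalization (0.0887). So it was with normexp (0.0719), the authors' value table (0.0501) and no filter on detection (0.24). Without sham replicate 4 the log2 change of Nppa was 0.83 instead of 1.37. Acta1, the skeletal actin that returns in stressed cardiomyocytes, rose 2.42-fold (adjusted p = 0.00104). Rcan1, a calcineurin target and inhibitor, rose 2.38-fold (adjusted p = 0.000344), and Nfatc4, named after its values were seen, rose by 0.86.

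Of the 9 detected sympathetic nerve genes, only Npy, a peptide stored with noradrenaline, was called on the spike-in scale. Its probe was well above background on all 4 MI arrays but on only 1 of 4 sham arrays, so it passed the filter through the MI group and its fold has no measured sham level. The signals were 6.10, 5.27, 7.35 and 5.65 in MI mice and 5.02, 4.72, 3.92 and 4.20 in sham-operated mice (adjusted p = 0.00107). When spots not well above background were set missing, the call was lost (adjusted p = 0.322), as it was with vsn fitted anew (0.347) and without the filter on detection (0.0613). With the 75th percentile scaling 3 genes of this list were called lower. Ddc, an enzyme of catecholamine synthesis, was among them at -0.78 (adjusted p = 0.0472), against -0.64 (adjusted p = 0.0795) on the spike-in scale. The mean of all Ddc probes on the spike-in scale changed by -0.38 (adjusted p = 0.316).

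**Figure D4:**
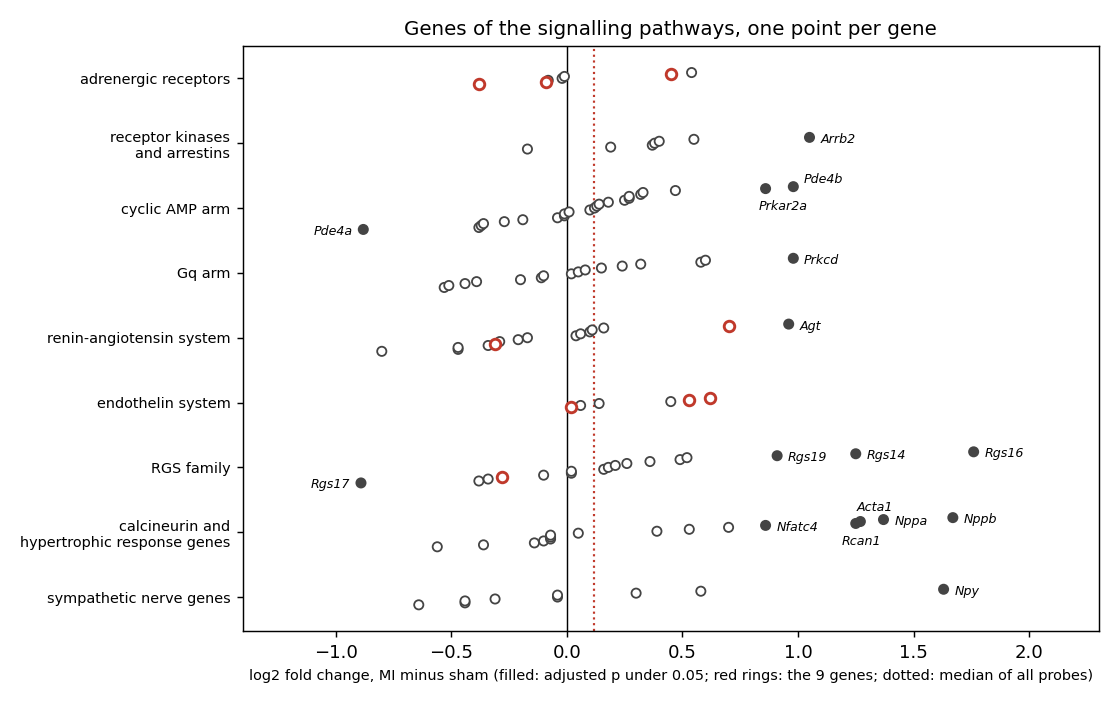
Change between MI and sham-operated mice on the log2 scale for 116 genes of 9 pathway lists, 1 point per gene. Filled points have an adjusted p under 0.05, red rings are the 9 genes described above and the dotted line is the median of all probes. The 9 rings are open and lie between -0.38 and 0.70, while 14 other genes plotted were called higher and 2 lower.

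Myl2, the ventricular myosin light chain, had mean log2 signals of 18.75 in MI and 18.84 in sham-operated mice. This cannot tell ventricles from a whole heart, which also contains ventricular muscle. Markers of other cell types moved beside the genes above. Of 6 detected neutrophil markers 5 rose, with a median change of 2.90. Their summed linear signal ranged from 2.04e+05 to 3.15e+05 after MI, and the sham range was 6.14e+04 to 8.02e+04. S100a9, the brightest, rose by 2.79. Of 6 monocyte and macrophage markers 2 rose, while the brightest, Csf1r, was at -0.16. Pericyte and smooth muscle markers gave 2 rises of 8, with the brightest, Acta2, up by 1.46, but their median change was -0.05. None of the 8 cardiomyocyte, 7 fibroblast, 8 endothelial, 5 T and B cell or 5 Schwann cell markers was called on the spike-in scale, with Myl2 at -0.08, Dcn at -0.38, Egfl7 at -0.14 and Cd4 at 0.18. Of 6 mast cell markers 1 rose, and the brightest, Tpsb2, was at -0.17. On the 75th percentile scale 1 cardiomyocyte marker and 1 Schwann cell marker were called lower, and 1 endothelial marker was called higher and 1 lower, while 2 pericyte and smooth muscle markers were called lower beside the 2 called higher. Median changes were -0.08 for cardiomyocyte, -0.44 for fibroblast and 0.06 for endothelial markers. In whole tissue, fewer cells of a type and less RNA per cell cannot be told apart, and the part of these markers in the values above was not tested.

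Genes with a course across the 8 arrays like that of Ace and Adra1a were taken from 14030 genes well above background on all of them. Ptprf and Atic had Pearson correlations with Ace of 0.996 and 0.996. They changed by 0.51 and 0.66, and neither was called. Rin2 (0.974) and Klk1b16 (0.961) were among the nearest to Adra1a. The correlations describe arrays of both groups and share the calibration of each array.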

How the data were processed

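Gene expression was measured in cardiac tissue of 8 mice, 4 after MI and 4 after the sham procedure, on 1 slide of 8 Agilent arrays, grouped by the sample labels. The deposited intensities are Feature Extraction 11.0.1.1 processed signals, background-subtracted by the authors' scanner software and not normalized between arrays. The log2 values of the authors were normalized with spike-in probes (limma and vsn). Median spot and background intensities, as deposited, were used for normexp. The scale and constant of each array were recovered from those log2 values and applied to all spots. Outlier spots were left out, spots of a probe averaged, and only probes that stood well above background on 4 or more arrays kept, which left 34038. Between 58.6% and 66.4% of spots were well above background. The number of arrays limits the precision.

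Groups were compared in limma 3.58.1 (R 4.3.3) with Benjamini-Hochberg adjustment over all probes. Single values and within-array differences used exact two-sided permutation tests over 70 arrangements. P-values measure the spread between these mice. In limma this spread is not that of a gene alone, since the variance of each probe is drawn toward that typical of all probes. Its standard errors, intervals and p-values therefore differ from those of the plain SDs. Scripts were tested on simulated data. The genes, lists and tests were chosen with earlier results of these data known. Besides the 9 genes, the text names list genes called with a fold over 2, or else the list gene with the largest change in each direction, the brightest marker of each cell type, and the 3 genes most like the members with the largest rise and fall. Alternatives covered the normalization, filter, probe choice, test, slide row, replicate number as a block and each mouse left out. Those combining the 75th percentile scaling with left-out mice or the block were chosen after seeing the data, and were run for the count of the 9 genes and for Adra1a and Agtr1a. Gene names and promoters came from RefSeq (GRCm38.p6). A few genes that these rules name are not reported here. The position of the probes in the transcripts was not used here.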

Additional observations from a re-analysis of the deposited data

Results flagged for a closer look

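Of 80 groups of 4 mice tested among the values of the 9 genes, the named pathway genes and markers and the pairs, 3 had a mouse far from the other mice of its group. Chance gives about 1 in 20. None lay in the signals of the 9 genes themselves. The difference Adrb1 minus Adra1a was 3.05 in sham replicate 3, above 2.06 to 2.16 in the other sham-operated mice. In the same mouse Grk4 was highest of the sham group at 6.61, on the log2 scale. Enpep was highest of the MI group in MI replicate 4, at 7.65.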

How the results depend on the processing

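The number of mice and the calibration between arrays both bear on the precision, with a median standard error over the 9 genes of 0.23 on the spike-in scale and 0.16 with the 75th percentile scaling, and the exact test of 4 against 4 mice cannot go below 0.0286. Of all probes, limma called 2590. The count was 1271 with vsn fitted anew to the spike-in spots, 5973 with the 75th percentile scaling, 6142 with quantile normalization, 7035 with normexp, 990 without a filter on detection and 3922 by significance analysis of microarrays. Of the 9 genes, 2 were called with the 75th percentile scaling, 2 with quantile normalization, 4 with normexp and 1 by significance analysis of microarrays, and from 0 to 1 when each mouse was left out. With the 75th percentile scaling, leaving out MI replicate 4 gave 3, leaving out MI replicate 3, sham replicate 1, sham replicate 3 or sham replicate 4 gave 1, and adding the block gave 0. Of the 117 pathway genes 17 were called, against 9 with vsn fitted anew, 33 with the 75th percentile scaling, 33 with quantile normalization, 41 with normexp and 6 without the filter. The cause of these shifts was not tested.

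With the replicate number as a block, limma called 4895 probes, 4 of the 9 genes and 28 pathway genes. Same-numbered mice deviated together with correlations of 0.265, 0.227, 0.039 and 0.011, and only 2 of 4 MI mice were closest to their own number, so the numbers were not taken as pairs.

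The sign turned for Ednra at -0.10 with the 75th percentile scaling, -0.05 with quantile normalization and -0.04 with normexp, for Adra1b at 0.06 and Csf1r at 0.19 with the mean of all probes of a gene, and for Edn1 minus Ednrb at -0.12 with vsn fitted anew and -0.03 with normexp. Ednra minus Ednrb was -0.53 with the mean of all probes of a gene, with an exact permutation p of 0.0286. Leaving out each mouse gave -0.24 to 0.13 for Adra1b, -0.12 to 0.13 for Ednra, -0.55 to 0.06 for Rgs2, -0.18 to 0.03 for Myl2, -0.29 to 0.03 for Csf1r, -0.00 to 0.47 for Cd4, -0.49 to 0.07 for Tpsb2, -0.07 to 0.19 for Edn1 minus Ednrb, -0.66 to -0.38 for Ednra minus Ednrb and 0.43 to 0.67 for Adrb1 minus Adra1b. Agtr1a minus Ace kept its sign and its separated groups under every alternative run for it.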
